A study of Mus musculus with 47 samples.

Results

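Voltage-gated sodium and calcium channels are membrane proteins that open when a neuron depolarises. A large pore-forming subunit, called alpha in sodium channels and alpha1 in calcium channels, holds the voltage sensors and the pore. Beta, alpha2delta and gamma subunits set how much channel reaches the membrane and how it opens and closes, and several gamma subunits (TARPs) instead carry AMPA-type glutamate receptors. In cortex the sodium channels carry the action potential, and the calcium channels trigger transmitter release, burst firing and calcium-dependent gene expression.

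The genes were chosen by symbol: sodium channel alpha and beta, calcium channel alpha1, alpha2delta, beta and gamma genes, with Scn4b left out. Of 48795 genes in the count table, 38 symbols matched, and 35 had at least 10 counts in at least 7 of the 47 libraries. All 35 were tested, and 33 are described and counted here: 6 sodium alpha, 2 sodium beta, 10 calcium alpha1, 4 alpha2delta, 4 calcium beta and 7 gamma genes. Scn4a, Scn11a and Cacng1 did not reach that level, with at most 5, 9 and 4 counts in a library. The gene for the sodium channel Nav1.2 is listed under its older symbol Scn2a1, so the symbol pattern missed it; its values are given beside the 33 and it is in none of their counts.

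RNA was sequenced from the cerebral cortex of 47 mice on a C57BL background, all aged 6 months. Q140 mice carry an expanded CAG repeat knocked into the huntingtin gene Htt and model Huntington's disease. The labels give these mice as heterozygous knock-ins. The groups were Q140, Q140 with Ccdc82+/- and Q140 with Ccdc82-/-, against WT, Ccdc82+/- and Ccdc82-/- mice, where +/- is loss of 1 copy of Ccdc82 and -/- loss of both. Each group had 8 mice, 4 of each sex, except Q140 with Ccdc82-/-, which had 7 (3 females and 4 males). The labels number the samples within genotype and sex, and nothing says whether the mice were littermates.

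Libraries held 43554594 to 61370843 counts. Ccdc82 followed its labels: it averaged 15.6, 11.4 and 5.51 CPM (counts scaled to library size) in Q140, Q140 with Ccdc82+/- and Q140 with Ccdc82-/-, and 16.2, 10.9 and 5.32 CPM in WT, Ccdc82+/- and Ccdc82-/- mice. The WT male 1 library stood apart from the other WT mice in Scn1a, Scn3b and Cacna1i. Some of the values that it moves, but not all, are also given without it.

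Levels of different genes are compared in FPKM, which divides by gene length. In WT cortex the leading sodium alpha genes were Scn8a (Nav1.6) at 38.2 ± 1.15 FPKM, Scn2a1 (Nav1.2) at 34.5 ± 1.01 FPKM and Scn1a (Nav1.1) at 32.2 ± 2.49 FPKM (SD, n = 8). The ranges of neighbours in that order overlapped: Scn8a spanned 35.6 to 39.7 FPKM, Scn2a1 33.1 to 35.9 FPKM and Scn1a 26.6 to 34.5 FPKM. Scn3a (Nav1.3), best known from the developing brain, followed at 3.41 FPKM, with no overlap. Scn7a, a sodium-sensing relative that is not a classical voltage-gated channel, had 0.651 FPKM. The sensory neuron channel genes Scn9a and Scn10a had 0.0470 and 0.0365 FPKM.

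Of the sodium beta genes, Scn2b averaged 77.7 ± 3.94 FPKM in WT mice and Scn3b 12.9 ± 1.80 FPKM, with no overlap. These subunits are also cell adhesion molecules of the immunoglobulin family.

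Among calcium alpha1 genes, Cacna1a (Cav2.1, the P/Q-type channel of presynaptic terminals) led by FPKM in WT mice, at 25.02 ± 0.817 FPKM. Cacna1e had 14.6 FPKM but led in CPM, which does not divide by length, at 368 CPM against 286 CPM for Cacna1a. The lengths used in FPKM were 25.1 kb for Cacna1e and 11.4 kb for Cacna1a. The T-type gene Cacna1i (Cav3.3) had 21.1 ± 1.23 FPKM and Cacna1b (Cav2.2, N-type) 19.8 ± 0.196 FPKM, and the ranges of these 2 overlapped. The L-type genes Cacna1d and Cacna1c stood at 7.67 and 4.96 FPKM. The skeletal muscle gene Cacna1s and the retinal gene Cacna1f were at 0.111 and 0.0435 FPKM.

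Each class of auxiliary calcium genes had 1 leader by FPKM in WT mice. In CPM the order of some genes was reversed. Cacna2d1 had 306 CPM against 117 CPM for Cacna2d3, and Cacnb4 had 440 CPM against 271 CPM for Cacnb3. Cacna2d3 led the alpha2delta genes at 31.7 ± 1.39 FPKM, ahead of Cacna2d1, a gabapentin-binding subunit, at 24.6 FPKM and Cacna2d2 at 5.88 FPKM. Cacnb3 led the beta genes at 86.8 ± 2.32 FPKM, ahead of Cacnb4 at 49.0 FPKM and Cacnb1 at 36.9 FPKM. Cacng7 led the gamma genes at 79.1 ± 4.02 FPKM, ahead of Cacng3 at 43.7 FPKM and Cacng2 (stargazin) at 26.9 FPKM.

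**Figure D1:**
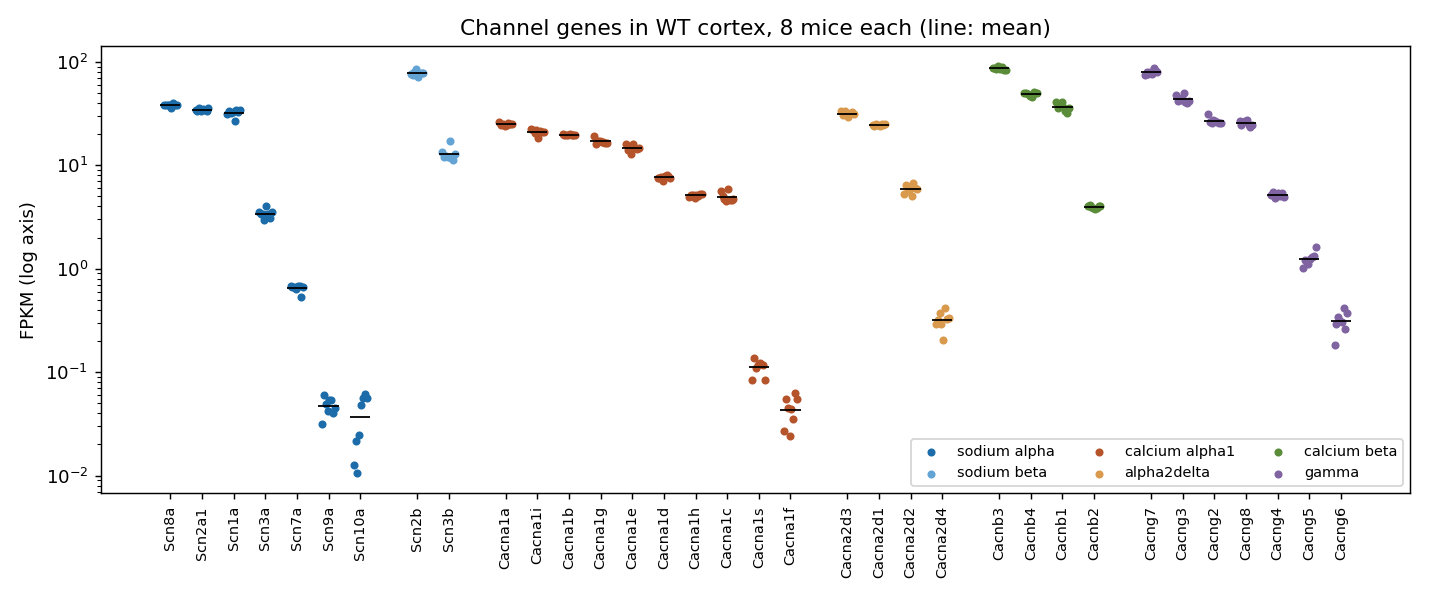
FPKM (log axis) of 33 channel genes and Scn2a1 in 8 WT mice each, grouped by subunit type; points are mice and lines are means. The widest relative scatter belongs to genes under 1 FPKM such as Scn10a and Cacna1f, and 1 mouse is high in Scn3b.

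Most of these genes varied little between mice of one genotype and sex. The residual SD of log2 CPM had a median of 0.0872 over the 33 genes and 0.117 over all 19174 genes tested. Ranked against genes of like abundance, the members' SDs had a median percentile of 67.8, above the middle. The largest SDs belonged to Scn10a (0.507), Cacng6 (0.428), Scn9a (0.385) and Cacna1f (0.343), all with few counts.

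The effect of Q140 was taken as the average over the 3 Ccdc82 genotypes, 23 mice against 24. None of the 33 genes described passed at an adjusted p under 0.05 by edgeR's quasi-likelihood test with Benjamini-Hochberg adjustment, beside 0.876% of all genes tested, and DESeq2 called none of them. At an unadjusted p under 0.05 there were 2 of 33, Scn3b and Scn3a, both higher with Q140, beside 9.18% of all genes. Of the 33, 13 lay above 0 and 20 below, with a median log2 change of -0.01, and the median over all genes was 0.00.

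**Figure D2:**
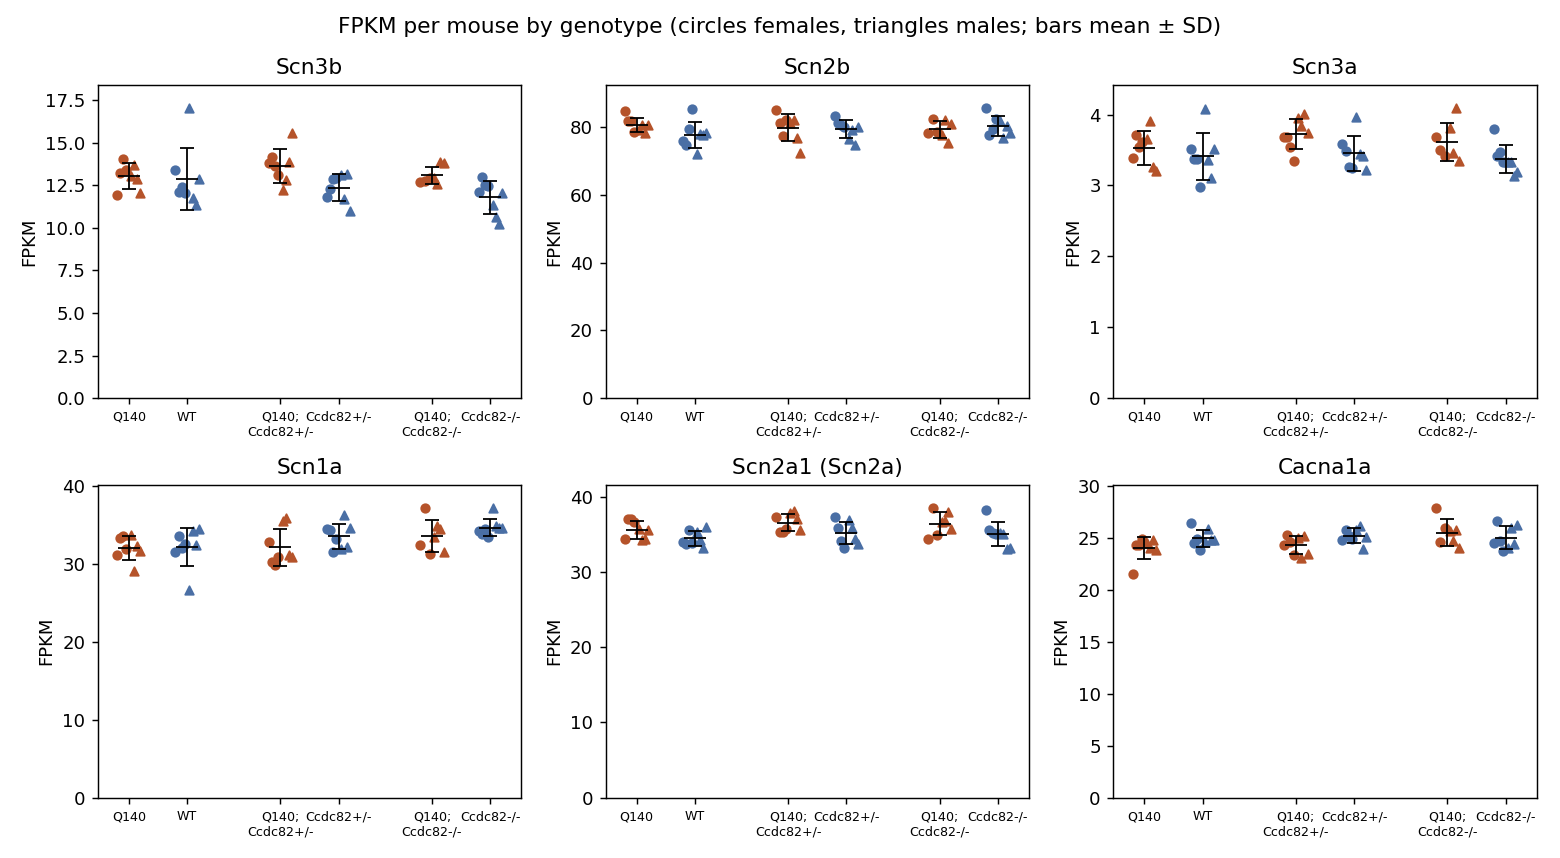
FPKM per mouse for 6 genes, with each Q140 genotype left of its counterpart without Q140; circles are females, triangles males, bars mean ± SD. The groups overlap in every panel, and 1 WT male is high in Scn3b and low in Scn1a.

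Scn3b, a sodium beta subunit, had 11.9, 13.1 and 15.6 FPKM (lowest, median and highest) with Q140, against 10.3, 12.2 and 17.05 FPKM without it. Its log2 change was 0.10 (SE 0.0345, adjusted p = 0.245), and 18 of 23 Q140 mice were above the matched mean. Without the WT male 1 library, whose 17.05 FPKM was the highest of the 47, the log2 change was 0.12 with an adjusted p of 0.00860, which makes 1 of 33 genes called. Scn2b had a median of 80.6 FPKM (72.4 to 85.1) with Q140, against 79.2 FPKM (71.9 to 85.6) without it, a log2 change of 0.01.

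Scn3a had a median of 3.66 FPKM (3.20 to 4.09) with Q140, against 3.37 FPKM (2.97 to 4.07) without it, a log2 change of 0.08 (SE 0.0282, adjusted p = 0.253). Scn1a had a median of 32.3 FPKM (29.1 to 37.2) with Q140, against 34.02 FPKM (26.6 to 37.1) without it, a log2 change of -0.04 (adjusted p = 0.592). Both genes' ranges overlapped between the groups. Scn7a had a median of 0.691 FPKM with Q140 and 0.663 FPKM without it, a log2 change of 0.08 (adjusted p = 0.681). Scn2a1, beside the members, had a median of 35.7 FPKM (34.2 to 38.5) with Q140, against 35.0 FPKM (33.05 to 38.2) without it. Its log2 change of 0.05 had an adjusted p of 0.156, and of 0.0312 once 2 surrogate variables were fitted.

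No calcium channel gene was called. Cacna1a had a median of 24.6 FPKM (21.6 to 27.9) with Q140, against 24.9 FPKM (23.8 to 26.7) without it. Its log2 change of -0.03 had a 95% interval of -0.07 to 0.00 (adjusted p = 0.558). Cacna1h (Cav3.2, T-type) had a median of 5.29 FPKM with Q140 and 5.11 FPKM without it, a log2 change of 0.05 (adjusted p = 0.627). Cacna1f had 9 to 26 counts with Q140 and 11 to 30 counts without it, a log2 change of -0.21 (SE 0.113, adjusted p = 0.613). Cacnb3, a calcium beta subunit, had a median of 84.4 FPKM (79.1 to 92.3) with Q140, against 86.0 FPKM (79.0 to 91.7) without it, a log2 change of -0.03 (adjusted p = 0.693). All 7 gamma genes lay below 0, from -0.17 to 0.00, with none called, beside 49.0% of all genes below 0. Within single Ccdc82 genotypes, 6 of the 7 lay below 0 with wild type, 6 with Ccdc82+/- and 4 with Ccdc82-/-.

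**Figure D3:**
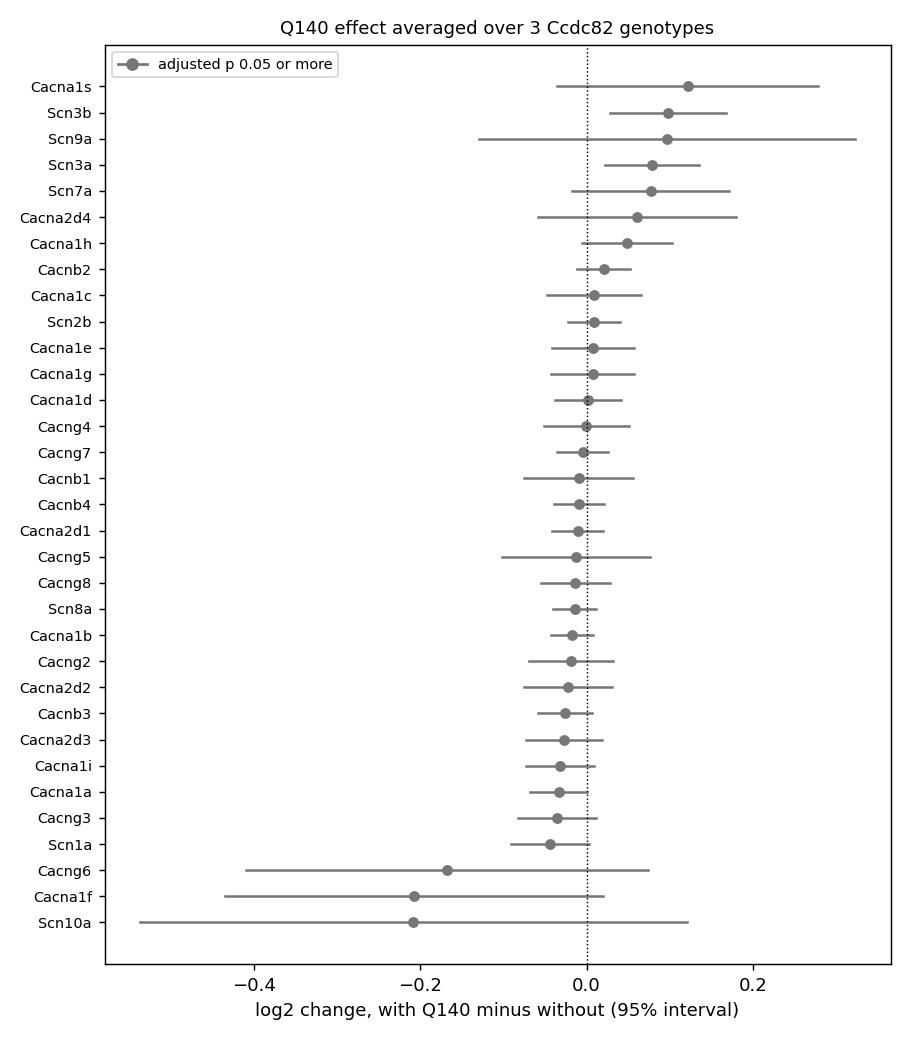
Log2 change with Q140 minus without, averaged over the 3 Ccdc82 genotypes, with 95% intervals, for 33 genes. None has an adjusted p under 0.05, the intervals of Scn3b and Scn3a lie above 0, and the widest intervals belong to genes with few counts such as Scn10a.

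Some markers of other cells moved with Q140, where 0.876% of all genes were called. Of 8 astrocyte markers, 4 were lower (Glul, Kcnj10, Aldoc and Slc1a2) and none was called higher, with Aqp4 at a log2 change of 0.07 and Gfap at 0.04. The list's summed level spanned 1069 to 1224 FPKM with Q140 and 1108 to 1294 FPKM without it, and the 4 called genes made up 87.1% of it with Q140 and 87.8% without. Of 9 interneuron markers 1 was lower (Lamp5), and of 6 microglia markers 1 was higher (Ctss). None of 10 cortical excitatory markers was called. The same held for the tested markers of striatum, thalamus, hippocampus, oligodendrocytes and their precursors, endothelium and pericytes, meninges, choroid plexus and skeletal muscle. The part of these shifts in the channel values was not tested, and in tissue RNA fewer cells of a type and less RNA per cell cannot be told apart.

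In mice with Q140 against their counterparts on each single Ccdc82 genotype, no channel gene was called, beside 0.0313%, 0.0313% and 0.0209% of all genes for the Ccdc82 wild type, +/- and -/- comparisons. At an unadjusted p under 0.05 by the same edgeR test, 3 of the 33 passed in each, beside 6.93%, 5.18% and 4.17% of all genes, and DESeq2 called 0 in each. The smallest p belonged to Cacna2d3, Cacna1a and Cacng3 in Q140 against WT, at log2 changes of -0.08, -0.06 and -0.08. Without the WT male 1 library Cacng3 was at -0.04. With Ccdc82+/- they were Scn3b, Cacna1a and Scn3a, at 0.14, -0.06 and 0.10. With Ccdc82-/- they were Cacna1s, Scn3b and Scn7a, at 0.35, 0.14 and 0.19.

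Loss of Ccdc82 called no channel gene by edgeR or DESeq2 either, in any of 6 comparisons, where 0.00522% of all genes were called in each. Taken over both Q140 backgrounds together, Ccdc82-/- against Ccdc82 wild type gave 5 of 33 genes at an unadjusted p under 0.05, all higher. Of all genes 4.65% passed in either direction and 2.37% were higher. They were led by Cacnb4, the beta subunit mutated in lethargic mice, at a log2 change of 0.06 (SE 0.0185), Scn1a at 0.09 (SE 0.0287) and Cacna2d3 at 0.06 (SE 0.0280). None of the 5 passed after adjustment, and without the WT male 1 library 2 passed unadjusted, Cacnb4 at 0.05 and Scn1a at 0.07. Cacnb4 averaged 50.7 ± 1.48 FPKM in Ccdc82-/- and 49.0 ± 1.77 FPKM in WT mice. Scn1a averaged 34.6 ± 1.09 FPKM in Ccdc82-/- and 32.2 ± 2.49 FPKM in WT mice, a log2 change of 0.11 that was 0.07 without the WT male 1 library. In Ccdc82-/- against WT, 3 of 33 passed at an unadjusted p under 0.05, beside 3.23% of all genes: Scn1a, Scn3b at -0.13 (-0.05 without that library) and Cacnb2 at -0.06.

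Mice with Q140 are part of the pooled comparison above, so their result is not a separate one. Among them, Ccdc82-/- against Ccdc82 wild type gave 5 of 33 at an unadjusted p under 0.05, all higher. Of all genes 4.09% passed in either direction and 1.97% were higher. The 5 were led by Cacna1a (0.09), Cacna2d3 (0.11) and Cacnb4 (0.07). Cacna1a averaged 25.5 ± 1.29 FPKM in Q140 with Ccdc82-/- and 24.1 ± 1.07 FPKM in Q140 mice. That Q140 group holds Q140 female 1, low at 21.6 FPKM beside 23.8 FPKM in its nearest mouse. The comparisons with 1 lost copy gave 1, 0 and 1 of 33 at that level, beside 3.6%, 5.42% and 5.31% of all genes in Ccdc82+/- against WT, among mice with Q140 and in both together. Cacna2d2, Scn1a and Cacng7 led Ccdc82+/- against WT, at 0.09, 0.06 and 0.03, which were 0.06, 0.02 and 0.02 without the WT male 1 library, with none at an unadjusted p under 0.05. Cacnb2, Cacna1h and Cacna1d led among mice with Q140, at 0.05, 0.09 and 0.06. Cacna1d, Cacna1h and Cacnb2 led the average of both, at 0.05, 0.06 and 0.03.

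Of the 33 genes and Scn2a1, 4 lie on chromosome 9, which also holds Ccdc82: Cacna2d2, Scn10a, Scn2b and Scn3b. None of these was called with loss of Ccdc82.

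No interaction of Q140 with Ccdc82 was called for any of the 33, or for any gene tested (0%), by edgeR, and DESeq2 called none of the 33; at an unadjusted p under 0.05, 1 member passed in each, beside 3.52% (Ccdc82+/-) and 2.96% (Ccdc82-/-) of all genes. Cacna2d2, Scn8a and Cacna1s led with Ccdc82+/-, at -0.14, -0.05 and -0.29. Without the WT male 1 library Cacna2d2 was at -0.10 and no longer passed unadjusted. Cacng4, Cacna1a and Cacnb2 led with Ccdc82-/-, at 0.16, 0.08 and 0.08.

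Sex was the factor with the most calls among these genes. Scn10a was called but met the level rule only through males, so its lower level in females is a description and supports no count. Of the 33 genes, 7 besides Scn10a differed between 23 females and 24 males, 6 higher and 1 lower in females. Of all genes 10.5% differed, 5.27% higher and 5.26% lower. The 7 had log2 differences between -0.08 and 0.16. The number in the library name is held by mice of a single sex. With it as a random block, only Cacna1i was called apart from Scn10a, beside 4.44% of all genes in that fit. With 2 surrogate variables only Cacna2d4 was called apart from Scn10a, beside 4.24% of all genes.

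The promoters of Scn10a and Cacna1i are shown from 250 bases before to 50 after the RefSeq start on GRCm38. Cacna1i had the smallest p of the genes called between the sexes other than Scn10a. Scn10a is shown with no weight on its p, since it is a member only through males. Capitals mark TGACG, the core of a cAMP response element, read on either strand.
Scn10a, chr9:119718983-119719282, minus strand: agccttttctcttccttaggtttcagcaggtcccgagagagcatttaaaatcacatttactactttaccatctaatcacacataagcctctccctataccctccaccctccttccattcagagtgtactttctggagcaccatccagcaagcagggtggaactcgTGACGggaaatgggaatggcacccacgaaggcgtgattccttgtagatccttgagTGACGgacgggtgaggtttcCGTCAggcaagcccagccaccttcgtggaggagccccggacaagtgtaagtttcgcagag
Cacna1i, chr15:80286988-80287287, plus strand: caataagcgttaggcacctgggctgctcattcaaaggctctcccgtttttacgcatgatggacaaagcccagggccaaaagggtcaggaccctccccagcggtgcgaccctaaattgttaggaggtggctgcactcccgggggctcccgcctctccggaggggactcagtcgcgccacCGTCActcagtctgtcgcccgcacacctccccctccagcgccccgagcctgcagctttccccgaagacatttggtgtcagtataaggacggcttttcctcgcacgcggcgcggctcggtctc
The motif was in 20.8% of 32851 RefSeq promoter windows of this length and in 6 of 38 windows of the channel genes, from the 27 of 34 genes that matched by symbol. The full inverted repeats of the oestrogen and androgen response elements, searched on both strands, were in none of the 38 windows and in 23 and 3 of all windows. A match is a string of letters, not a measured binding site.

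Scn10a (Nav1.8), a channel of pain-sensing neurons, had 1 to 13 counts per library in females and 6 to 25 counts in males. That is 0.00323, 0.0200 and 0.0396 FPKM (lowest, median and highest) in females, against 0.0205, 0.0488 and 0.0790 FPKM in males. All 23 females were below the male median, and the sexes differed in the same direction in all 6 genotypes. The log2 difference was -1.29. It reached 10 counts in 3 female and 21 male libraries, where 7 were needed. Scn10a is thus a member only through males, the sex in which it is higher. The tallies over mice and genotypes describe these libraries and are no support for a sex difference, and no test is given for this gene.

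Cacna1i had 20.2, 21.6 and 24.7 FPKM (lowest, median and highest) in females, against 18.5, 20.5 and 23.4 FPKM in males. It was higher in females in all 6 genotypes, with a log2 difference of 0.09 (SE 0.0204, adjusted p = 0.00439). Its T-type relative Cacna1h ran the other way, with a median of 5.06 FPKM (4.10 to 5.95) in females and 5.29 FPKM (4.77 to 6.83) in males, a log2 difference of -0.08 (adjusted p = 0.0490). That call was lost without the WT male 1 library (adjusted p = 0.0505), with no filter on low counts (0.0873), with the library-name block (0.157) and with 2 surrogate variables (0.457). Both pairs of ranges overlapped.

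Scn2b had a median of 81.1 FPKM (74.8 to 85.6) in females and 78.3 FPKM (71.9 to 82.2) in males, a log2 difference of 0.05 (adjusted p = 0.0200). Scn7a had a median of 0.697 FPKM (0.577 to 0.803) in females and 0.653 FPKM (0.474 to 0.752) in males, a log2 difference of 0.16 (adjusted p = 0.0252). Both were higher in females in all 6 genotypes, with overlapping ranges. Of 10 alternative fits, 5 kept the Scn2b call, 4 lost it and 1 changed its sign, while 7 kept the Scn7a call. Fits by limma on log2 FPKM called Scn7a but not Scn2b.

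Cacng3, a TARP, had a median of 42.7 FPKM (39.4 to 47.8) in females and 40.6 FPKM (37.6 to 50.4) in males, a log2 difference of 0.08 (adjusted p = 0.0271). Cacnb3 had a median of 86.0 FPKM (79.1 to 92.3) in females and 84.1 FPKM (79.0 to 88.8) in males, a log2 difference of 0.05 (adjusted p = 0.0277). Cacnb1 had a median of 37.4 FPKM (32.9 to 41.3) in females and 34.5 FPKM (31.3 to 41.4) in males, a log2 difference of 0.10 (adjusted p = 0.0486). The ranges of all 3 overlapped, and Cacnb1's difference was 0.00 with 2 surrogate variables. Cacng3 and Cacnb3 were higher in females in all 6 genotypes, and Cacnb1 in 5 of 6. Of 10 alternative fits, 7 kept the call of Cacng3, 5 that of Cacnb3 and 6 that of Cacnb1. In 2 of the 10 Cacnb1 changed sign. Fits by limma on log2 FPKM called Cacng3 and Cacnb1 but not Cacnb3.

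**Figure D4:**
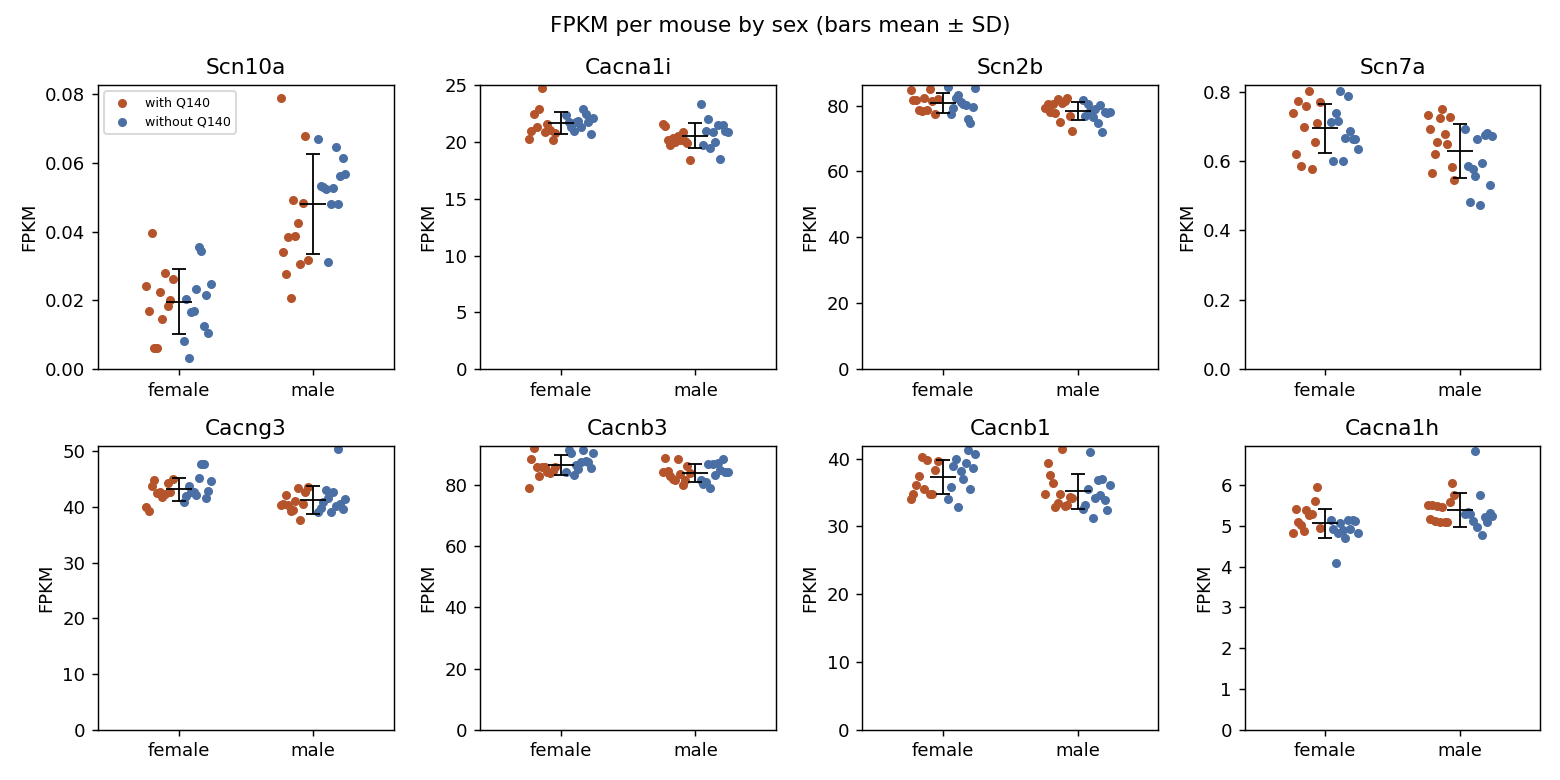
FPKM per mouse in 23 females and 24 males for Scn10a, a member only through males, and the other 7 genes called between the sexes. Colours mark mice with and without Q140, bars are mean ± SD. In Scn10a, 10 of 23 females lie at or above the lowest male and 8 of 24 males at or below the highest female. In Cacna1h, also lower in females, 21 females and 22 males do. In the remaining genes, all higher in females, the ranges of the sexes overlap.

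**Figure D5:**
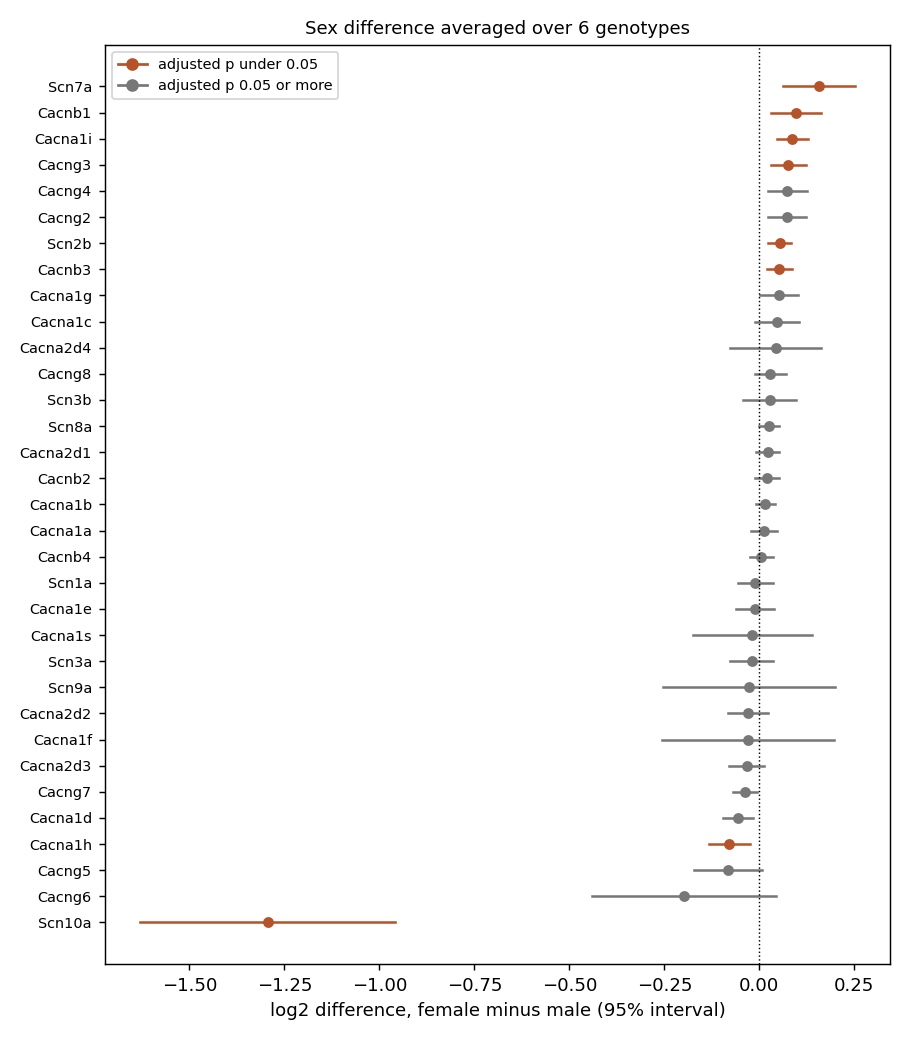
Log2 difference, female minus male, averaged over 6 genotypes, with 95% intervals, for 33 genes. Scn10a, a member only through males, lies at -1.29, far from the rest, which fall between -0.20 and 0.16. The interval of Scn10a is not used as a test.

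The marker genes Scn1a and Cacna1a, and Scn2a1, were not called between the sexes, at log2 differences of -0.01, 0.01 and 0.02. Over all genes 5.27% were called higher and 5.26% lower in females. Of 6 endothelial and pericyte markers 3 were higher in females, with a summed level of 48.2 to 55.5 FPKM in females and 46.0 to 55.0 FPKM in males. Of 9 interneuron markers 3 were lower in females, with a summed level of 481 to 543 FPKM in females and 477 to 555 FPKM in males. Their part in the channel differences was not tested. Of 30 genes that scaffold, modulate or resemble these channels, 5 were higher and 1 lower in females.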

How the data were processed

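The authors deposited a table of raw read counts per gene and a table of FPKM values for the same 47 libraries. Per the submitters' processing notes the tools were STAR 2.7.5c, SAMtools 1.10 and HTSeq 0.12.3 with GRCm38 and mm10; the annotation release and strand setting are not given in the sources used here. Per the labels' protocols, RNA came from an RNeasy kit and libraries were TruSeq stranded. Reads shared between related channel genes may have been lost or split.

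Genes were kept by filterByExpr (minimum count 10, total 15), leaving 19174, all 35 channel genes among them. The robust quasi-likelihood fit of edgeR 4.0.16 (R 4.3.3) used TMM scaling, with 6 genotype means and sex as terms. P-values were adjusted by Benjamini-Hochberg over all genes and called under 0.05. Standard errors were computed from the log2 change and its F value. The steps were tested on simulated data. Alternatives used DESeq2 1.42.0, limma 3.58.1 and sva 3.50.0.

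The genes and marker lists were chosen with earlier results of these data known. Values are given for the 3 marker genes, genes called anywhere, and the 8 with the smallest p for Q140, with the 3 smallest named in other comparisons. Counting error is small beside differences between mice except for genes with few counts. P-values set each difference against the spread left between these mice after genotype and sex. Some genes of the family and of the lists were fitted with the rest but are not reported here, so counts cover the genes described and not the whole family.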

Additional observations from a re-analysis of the deposited data

Results flagged for a closer look

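Among 14 channel genes in 6 genotypes, 8 of 84 groups held a mouse far from the others of its group, by the gap to its nearest neighbour as a share of the group's range. Chance flags about 1 in 20 groups. The WT male 1 mouse accounted for 3: Scn1a at 26.6 FPKM, Scn3b at 17.05 FPKM and Cacna1i at 18.5 FPKM. Scn1a was high in Ccdc82-/- male 1, at 37.1 FPKM. Cacna1a was low in Q140 female 1, at 21.6 FPKM. Cacna1h was low in Ccdc82-/- female 3, at 4.10 FPKM. Scn7a was low in WT male 3, at 0.531 FPKM. Scn10a was high in Q140 male 1, at 0.0790 FPKM, in a gene with at most 25 counts.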

How the results depend on the processing

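Counts of 0 called members stayed at 0 under every alternative run for the comparisons by single genotype, for Ccdc82 loss and for the interactions. For Q140 the count stayed at 0 under all alternatives run but 2, given in the next paragraph. The calls between the sexes depended on the fit. When mice sharing a library-name number formed a random block, 2 members were called, beside 4.44% of all genes, and with 2 surrogate variables 2, beside 4.24%, where Cacnb1 changed sign to a log2 difference of -0.00249. DESeq2 and the plate column as a factor each called 10, beside 12.7% and 14.4% of all genes. Scn10a, a member only through males, is among the members called in each of these fits except DESeq2.

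The surrogate variable fit was run in 2 versions, and the choice between them was made after seeing output. The first held sex in the null model. It called 1 member for Q140 (Scn3a at 0.09, adjusted p = 0.0309), beside 2.22% of all genes, and 2 between the sexes (Scn10a and Cacna1c), beside 2.04%, and it changed the sign of Cacnb1 (-0.0376), Cacna1h (0.00596) and Scn2b (-0.00668). The version with an intercept alone in the null model then took its place as the listed alternative. Leaving out WT male 1 was also chosen after seeing the data. It called 1 member for Q140, Scn3b at 0.12, beside 0.991% of all genes. Between the sexes it called 9, Scn10a among them, beside 11.7%.

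Numbers in the titles did not pair the mice: same-numbered mice of a sex correlated at a mean r of 0.01 over 115 pairs (-0.205 to 0.288). With the replicate block 0 members were called for Q140. Depth limits Scn10a, Cacna1f, Scn9a and Cacng6, which have few counts.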
